A study of Homo sapiens with 16 samples.

Results

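The genes described here are 10 components of Notch signalling: the ligands DLL4, DLL1, JAG1 and JAG2, the receptors NOTCH1 and NOTCH2, and the transcriptional repressors HES1, HES4, HES6 and HES7. They were picked by symbol from the 28277 gene symbols of each deposited table, with their differences in these same libraries already known, so those differences are given as a description with no test. Messenger RNA was profiled in 2 established human myeloma lines of plasma cell origin, INA6 and JJN3. Each line had 3 libraries with KANSL2 knocked down and 3 libraries with a nontargeting control guide, and every library was labelled untreated. In all 4 groups the cells carried CRISPR interference, in which a nuclease-dead Cas9 joined to a repressor domain is guided to a promoter. KANSL2 is a subunit of the NSL histone acetyltransferase complex. The 4 JJN3 chromatin accessibility libraries, 2 with KANSL2 knockdown and 2 controls, were not analysed here. The labels state neither whether replicates came from separate cultures nor whether a group was 1 clone, so p-values measure only how far these libraries spread, which may be technical.

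Notch receptors are activated by ligands on neighbouring cells. Ligand binding exposes the receptor to cleavage by ADAM proteases and then by gamma-secretase, and the freed intracellular domain enters the nucleus, joins the DNA-binding protein RBPJ and a Mastermind protein, and turns on target genes such as HES and HEY family members. HES and HEY proteins are basic helix-loop-helix repressors, and several HES genes are repressed by their own products. In myeloma, Notch ligands and receptors are known from both the tumour cells and the marrow cells around them.

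RefSeq promoters of GRCh38.p14, from 250 bases before to 50 bases after the annotated start, were given for 9 of the 10 genes, all but DLL1. The 5 printed here are those of HES1 and HES4, which hold the RBPJ core letters TGGGAA, and those of DLL4, HES6 and HES7, the genes with the largest differences below, which do not. Capitals mark TGGGAA, which was searched on both strands. The HES1 window is chr3:194135898-194136197 on the plus strand, the HES4 window chr1:1000048-1000347 on the minus strand, and the DLL4 window chr15:40929090-40929389 on the plus strand. The HES6 window is chr2:238239989-238240288 and the HES7 window chr17:8124057-8124356, both on the minus strand. The HES7 window lies inside the annotated span of the gene, chr17:8120592-8126634, and not at its upper end. Distances to the neighbours of HES7 below are taken from the span.
HES1: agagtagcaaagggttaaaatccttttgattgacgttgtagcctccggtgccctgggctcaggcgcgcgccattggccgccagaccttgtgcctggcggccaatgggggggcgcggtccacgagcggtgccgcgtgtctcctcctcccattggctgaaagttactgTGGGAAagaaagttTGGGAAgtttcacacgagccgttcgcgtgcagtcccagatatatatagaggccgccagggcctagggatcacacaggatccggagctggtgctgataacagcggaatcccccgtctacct
HES4: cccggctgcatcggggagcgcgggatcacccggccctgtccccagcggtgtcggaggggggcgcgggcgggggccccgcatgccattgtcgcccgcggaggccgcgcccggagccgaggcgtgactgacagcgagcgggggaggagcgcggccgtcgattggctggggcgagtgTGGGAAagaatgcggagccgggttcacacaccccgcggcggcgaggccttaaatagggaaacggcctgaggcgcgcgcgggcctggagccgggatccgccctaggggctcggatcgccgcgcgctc
DLL4: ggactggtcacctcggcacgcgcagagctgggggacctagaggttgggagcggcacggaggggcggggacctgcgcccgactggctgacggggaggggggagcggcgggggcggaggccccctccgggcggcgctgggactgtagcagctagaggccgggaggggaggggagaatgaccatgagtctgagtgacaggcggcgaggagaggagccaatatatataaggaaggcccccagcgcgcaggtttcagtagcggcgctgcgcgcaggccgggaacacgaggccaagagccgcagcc
HES6: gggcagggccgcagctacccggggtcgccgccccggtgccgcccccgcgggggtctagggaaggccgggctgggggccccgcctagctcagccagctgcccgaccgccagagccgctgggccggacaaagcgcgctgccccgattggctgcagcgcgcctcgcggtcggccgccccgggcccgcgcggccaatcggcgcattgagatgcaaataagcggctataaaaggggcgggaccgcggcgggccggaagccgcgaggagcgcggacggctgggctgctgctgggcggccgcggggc
HES7: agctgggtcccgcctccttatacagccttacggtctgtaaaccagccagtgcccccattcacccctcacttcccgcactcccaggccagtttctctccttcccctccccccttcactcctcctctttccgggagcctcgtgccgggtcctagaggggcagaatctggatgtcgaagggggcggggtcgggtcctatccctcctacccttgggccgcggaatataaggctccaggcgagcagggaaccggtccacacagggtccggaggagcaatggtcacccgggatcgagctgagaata

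HES1 holds TGGGAA at positions −84 and −70 from its start, both on the gene's strand, and HES4 holds it at −76. The letters occur in 24.3% of all 27305 promoters of this length and in 2 of the 9 promoters here. The N-box letters CACNAG, a site bound by HES proteins, lie in 5 of the 9, against 38% of all promoters, with 4 matches in HES1 and 1 each in DLL4 (CACGAG at 28) and HES7 (CTCGTG, the reverse complement, at −115). The class C letters CACGCG lie in 4 of the 9, against 11.4% of all, once each in DLL4, JAG1 and JAG2 and at 2 places in HES1. The class B E-box CACGTG lies in 0 of the 9, against 7.43% of all. No match overlapped a match of another motif in these windows, while the 2 N-box matches in NOTCH1 overlap each other. A match is a run of letters, not evidence of binding. The G and C content of the 9 windows ran from 59% in HES1 to 79.7% in JAG2, above the median of 58.3% over all promoters.

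Expression is given as the deposited rlog (regularised log) values, which are on the log2 scale, and differences are knockdown minus non-targeting, with the standard error (SE) from a limma fit across all genes with a mean of at least 3 in that line. A gene was called when its Benjamini-Hochberg adjusted p was below 0.05. The target KANSL2 (chr12:48653211-48682238) had values of 7.71, 7.60 and 7.76 in the INA6 knockdown libraries, against 8.06, 8.02 and 8.16 in the non-targeting libraries. The difference of −0.39 (SE 0.0625) left 76.4% of the non-targeting level (limma adjusted p = 3.06e-05). In JJN3 KANSL2 had 6.00, 5.98 and 6.06 with the knockdown, against 7.25, 7.24 and 7.19, a difference of −1.21 (SE 0.0559) that left 43.1% (limma adjusted p = 1.48e-16). No library of either line went against its label. All 10 listed plasma cell markers, among them SDC1 and PRDM1, reached a mean of 3 in both lines, while 0 of 8 stromal markers did in either. The 2 tables were normalised separately and no transcript lengths were used, so neither lines nor genes are compared by level. In such bulk libraries, fewer cells that express a gene and less RNA of it per cell cannot be told apart.

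Among the Notch ligands, DLL4 stood apart in JJN3. DLL4, a Delta-type ligand best known from blood vessel sprouting, lies at chr15:40929340-40939073. Its rlog value was 7.78, 8.00 and 8.01 in the JJN3 knockdown libraries, against 6.88, 6.75 and 6.72 in the non-targeting libraries. All knockdown values lay above all non-targeting values, with a difference of 1.15 (SE 0.0631), or 221% of the non-targeting level. This was the highest difference among the 12282 genes tested in JJN3. In INA6, DLL4 was near the minimum for testing, at 3.27, 3.21 and 3.16 with the knockdown, against 3.11, 3.28 and 3.10 without it. There the groups overlapped, with a difference of 0.05 (SE 0.0484). Since rlog values of genes with few reads are drawn towards the gene's mean, a change of DLL4 in INA6 would be understated.

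JAG1, a Jagged-type ligand (chr20:10637684-10673999), was higher with the knockdown in both lines. In JJN3 it had 8.65, 8.66 and 8.59 in knockdown libraries, against 8.12, 8.24 and 8.12 in non-targeting libraries, a difference of 0.47 (SE 0.0515). In INA6 it had 6.40, 6.41 and 6.33, against 6.18, 6.26 and 6.16, a difference of 0.18 (SE 0.0619). The groups did not overlap in either line, but in INA6 the nearest values, 6.33 with and 6.26 without the knockdown, were close. The INA6 call was lost without knockdown replicate 2 (0.17), non-targeting replicate 1 (0.17) or non-targeting replicate 3 (0.16).

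JAG2, the second Jagged ligand (chr14:105140995-105168776), had 11.15, 11.25 and 11.35 in JJN3 knockdown libraries, against 11.09, 11.08 and 11.03 in non-targeting libraries. The groups did not overlap, and the difference was 0.19 (SE 0.0444), or 114%. With quantile normalisation of the libraries it was 0.08 and was not called. In INA6, JAG2 had 3.69, 3.79 and 3.83, against 3.81, 3.75 and 3.82. These values overlapped, and the difference of −0.02 (SE 0.0478) took either sign over the alternatives, from −0.05 to 0.02.

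DLL1, the other Delta ligand (chr6:170282206-170291078), was listed at exactly 0 in all 12 libraries, as were 8911 symbols in INA6 and 10073 in JJN3. That list also holds EIF4A1, a translation factor gene that every cell uses, named here after its values were seen, so a 0 does not show that a gene was silent. FAM120B, which overlaps DLL1 in the annotation, was also at 0 in all 12.

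Both receptors were measured in both lines, NOTCH1 with the higher difference in JJN3 and NOTCH2 with the higher difference in INA6, side by side and untested. NOTCH1 (chr9:136494433-136546048) had 9.31, 9.30 and 9.34 in JJN3 knockdown libraries, against 9.10, 9.09 and 9.06 in non-targeting libraries. The knockdown values all lay above, with a spread within each group under the difference of 0.23 (SE 0.045), or 117%. In INA6, NOTCH1 had 10.29, 10.38 and 10.41, against 10.31, 10.28 and 10.23. There knockdown replicate 1 lay within the non-targeting range, and the difference was 0.08 (SE 0.0467), not called. Without that library it was 0.12 and was called, as it was with median centring (0.12).

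NOTCH2, a receptor that in mouse is needed for marginal zone B cells, lies at chr1:119911553-120069662. It had 8.83, 8.73 and 8.67 in INA6 knockdown libraries, against 8.17, 8.50 and 8.37 in non-targeting libraries, a difference of 0.40 (SE 0.0689) or 132%. The groups did not overlap, though the non-targeting libraries spread over 8.17 to 8.50. In JJN3 it had 11.89, 11.88 and 11.86, against 11.77, 11.71 and 11.78, a difference of 0.12 (SE 0.0384) with no overlap. The JJN3 call was lost without non-targeting replicate 2 (0.10) and with quantile normalisation (0.03). NOTCH2 shares near-identical sequence with the NOTCH2NL genes, so its values are uncertain where the authors' counting could split reads between them. The copy NOTCH2NLA was at −0.06 in INA6 (limma adjusted p = 0.475) and fell by 0.14 in JJN3 (limma adjusted p = 0.0384). NOTCH2NLB, NOTCH2NLC and NOTCH2NLR were below the minimum in INA6 and not called in JJN3, at −0.05, 0.06 and −0.03.

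The HES genes did not move one way: HES6 was higher and HES7 lower in both lines, and HES4 overlapped between groups where it was measured. HES6 (chr2:238238267-238240038) is an unusual family member that in mouse counters HES1. In JJN3 it had 10.83, 11.01 and 11.22 in knockdown libraries, against 10.34, 10.23 and 10.13 in non-targeting libraries. The knockdown libraries all lay above but differed among themselves by more than the non-targeting ones did, and the difference was 0.79 (SE 0.0609), or 173%. It ranked 9 among the rises in JJN3. In INA6, HES6 had 10.24, 10.24 and 10.48, against 10.07, 10.25 and 10.00. Non-targeting replicate 2 lay above 2 of the knockdown libraries, so the groups overlapped. The INA6 difference of 0.21 (SE 0.0639) was called but rested on single libraries, being 0.13 without knockdown replicate 3 and 0.16 without non-targeting replicate 3, both not called. With quantile normalisation it was 0.16, also not called.

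HES7, an oscillating repressor of the segmentation clock in mouse embryos, lies at chr17:8120592-8126634. It had 7.85, 8.00 and 7.97 in JJN3 knockdown libraries, against 8.81, 8.81 and 8.79 in non-targeting libraries. The non-targeting values were nearly equal and all far above, and the difference of −0.86 (SE 0.0518) left 55% of their level, rank 9 among the falls in JJN3. In INA6, HES7 had 4.75, 4.71 and 4.84, against 5.01, 4.98 and 4.93. Again no values overlapped, with a difference of −0.21 (SE 0.0557), or 86.6%. Over the alternative runs in which HES7 was tested, all on these same libraries, the difference was −0.89 to −0.82 in JJN3 and −0.24 to −0.17 in INA6.

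HES4 (chr1:998964-1000097), a HES1-like gene found in human but not in mouse, had 6.66, 6.70 and 6.90 in JJN3 knockdown libraries, against 6.91, 6.82 and 6.84 in non-targeting libraries. Knockdown replicate 3 lay among the non-targeting libraries, and the difference was −0.11 (SE 0.062), not called. Without that library it was −0.18 and was called. In INA6 HES4 lay within 0.01 of the lowest value of the table, −1.97, in all 6 libraries and was not tested. HES1 (chr3:194136148-194138732), the most studied Notch target of the family, was listed at 0 in all 12 libraries and, as for DLL1, nothing is read from that.

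Of the 10 genes, 7 reached the minimum mean in INA6 and 8 in JJN3. In INA6, 3 were called higher (JAG1, NOTCH2 and HES6) and 1 lower (HES7), while 48.6% of the 12511 genes tested were called, 24.7% higher and 24.0% lower. The values of 3 did not overlap between groups, against 55.2% of all genes tested. In JJN3, 6 were called higher (DLL4, JAG1, JAG2, NOTCH1, NOTCH2 and HES6) and 1 lower (HES7), while 51.0% of 12282 genes were called, 25.5% in each direction. The values of 7 did not overlap, against 56.1% of all genes. Because the genes were chosen with these differences known, nothing is read from the counts. Over the genes tested, the median difference was 0.08 in INA6 and 0.21 in JJN3, against 0.0009 and 0.0010 over all genes. The median absolute difference was 0.18 in INA6 and 0.35 in JJN3, against 0.13 and 0.12 over all genes. With median centring of the libraries, the split of all called genes moved to 3904 higher and 2400 lower in INA6, against 3084 and 3000, and to 3768 and 2571 in JJN3, against 3135 and 3129.

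**Figure D1:**
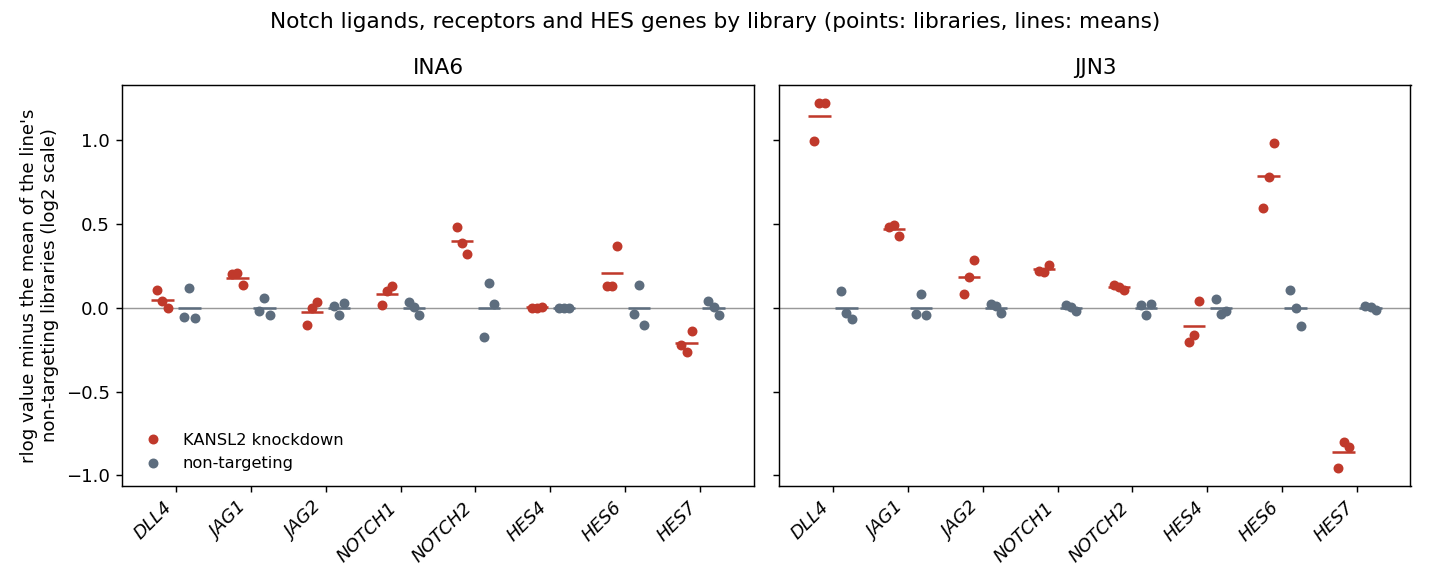
Library values of the 8 genes that are not at 0, as rlog value minus the mean of the line's 3 non-targeting libraries (log2 scale), with knockdown libraries in red left of non-targeting libraries in grey and short lines for means. In JJN3, DLL4 and HES6 sit above and HES7 below their non-targeting libraries, at mean differences of 1.15, 0.79 and −0.86, while in INA6 NOTCH2 has the highest mean difference, 0.40.

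The largest differences in JJN3 were those of DLL4, HES7 and HES6, and the order was not that of INA6, where NOTCH2 came first. Side by side, the differences in INA6 and JJN3 were 0.05 and 1.15 for DLL4, 0.18 and 0.47 for JAG1, 0.21 and 0.79 for HES6, and −0.21 and −0.86 for HES7. NOTCH2 had 0.40 in INA6 and 0.12 in JJN3. KANSL2 itself was lowered by more in JJN3, so the size of the knockdown and the line cannot be told apart here. Rlog values also understate changes of genes with few reads. Mean values in INA6 were 3.19 for DLL4, 4.87 for HES7, 6.29 for JAG1 and 10.21 for HES6. The part of this in the side-by-side differences was not tested. The lines were not tested against each other for these genes. Within JJN3, knockdown replicate 1 had the lowest of the 3 knockdown values of DLL4, JAG2, HES4, HES6 and HES7.

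For DLL4, HES6 and HES7 the genes with the nearest pattern were found by the root-mean-square distance over the 12 libraries, each gene being centred on its line's non-targeting mean, among the 11137 genes with a mean of at least 3 in both lines. Nearest to DLL4 were ATF3, a stress-induced transcription factor, at 0.0878, BCL6, the germinal centre repressor, at 0.163, and FOSB, an AP-1 subunit, at 0.186. ATF3 had 7.92, 8.00 and 7.89 in JJN3 knockdown libraries, against 7.06, 6.66 and 6.69. Its INA6 difference was −0.02, and its JJN3 difference of 1.13 stood next to 1.15 for DLL4. BCL6 was at 0.0043 in INA6 and 0.92 in JJN3, and FOSB at 0.0051 and 0.88. In INA6, DLL4 had a mean of 3.19, near the minimum for testing, where a change would be understated. ATF3, BCL6 and FOSB had means of 8.47, 8.83 and 9.24 there. The likeness to DLL4 in INA6 is therefore uncertain.

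Nearest to HES6 were LOC101448202 at a distance of 0.108, GADD45B, a stress-response gene, at 0.116, and MFSD12, a lysosomal transporter gene, at 0.117. Their differences in INA6 and JJN3 were 0.28 and 0.67, 0.12 and 0.64, and 0.32 and 0.66. MFSD12 had its highest value in each line in knockdown replicate 3, 10.52 in INA6 and 10.33 in JJN3, the libraries in which HES6 was also highest. Nearest to HES7 were C2orf88 at 0.0695, GRN, the progranulin gene, at 0.0823, and COL9A2, a collagen gene, at 0.0857. C2orf88 was at −0.21 in INA6 and −0.90 in JJN3, GRN at −0.27 and −0.76, and COL9A2 at −0.22 and −0.72. All 9 were picked for their likeness, so their differences are a description. For HES1, at 0 throughout, no distance was computed.

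**Figure D2:**
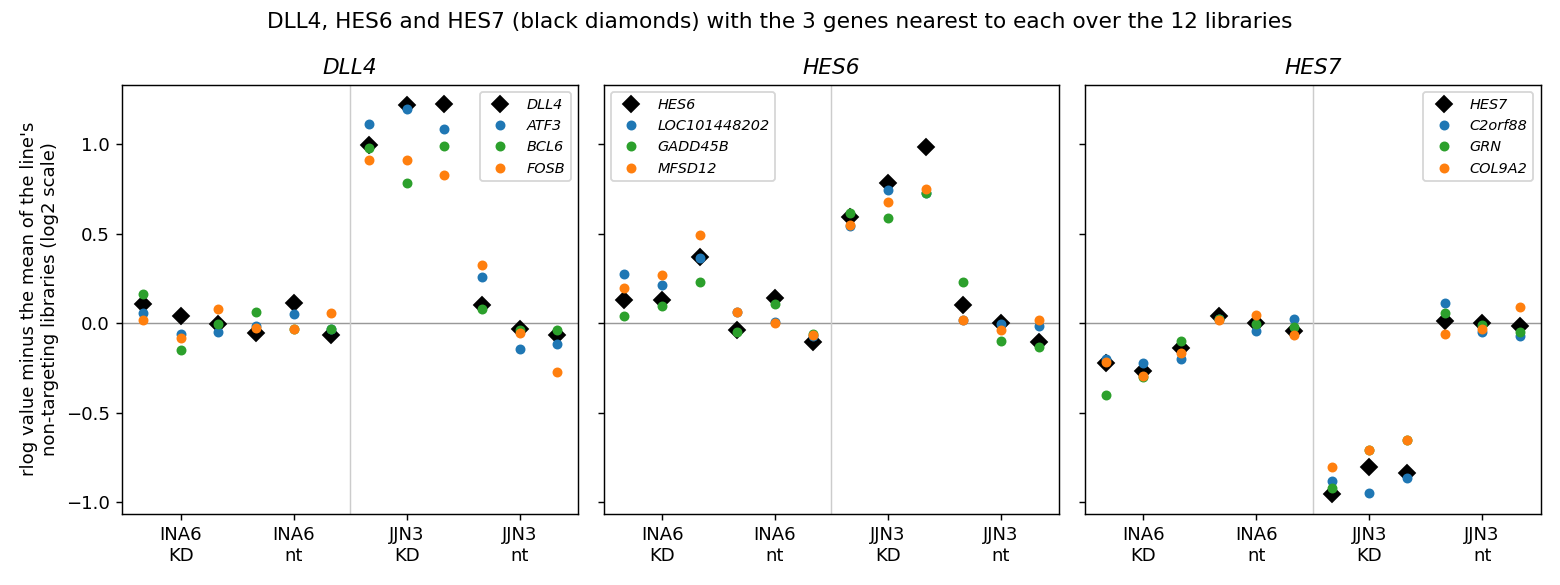
Values of DLL4, HES6 and HES7 (black diamonds) and of the 3 genes nearest to each (coloured points) in the 12 libraries, as rlog value minus the mean of the line's non-targeting libraries (log2 scale), with knockdown left of non-targeting in each line. DLL4 and ATF3 lie near 0 in INA6 and average 1.15 and 1.13 above the non-targeting mean in the JJN3 knockdown libraries. DLL4 was near the minimum for testing in INA6, where a change would be understated.

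Of 70 other genes of the pathway, listed by role, 54 were tested in INA6, of which 19 rose, 18 fell and 17 were not called, with a median difference of −0.0049. In JJN3, 56 were tested, of which 24 rose, 12 fell and 20 were not called, with a median of 0.06. The split depended on the scaling: quantile normalisation gave 16 higher and 19 lower in INA6 and 18 higher and 16 lower in JJN3, and median centring gave 20 and 13 in INA6 and 25 and 10 in JJN3. The shares called, 68.5% in INA6 and 64.3% in JJN3, are to be set beside the 48.6% and 51.0% of all genes given above, and the list was put together with results of these data known. Adjusted p-values below are from the 2 limma fits over all genes. The other receptors could not be followed: NOTCH4 was listed at 0 in all libraries, and NOTCH3 was below the minimum mean in both lines.

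Of the other ligands, DLL3, a Delta-type ligand known to act inside the cell against Notch signalling, fell in JJN3 by 0.41 (adjusted p = 1.15e-06), with 6.59, 6.68 and 6.71 in knockdown libraries, against 6.96, 7.13 and 7.12. It thus went the other way from DLL4 in the same libraries. In INA6, DLL3 was at −0.03 (adjusted p = 0.565), and DLK2, a Delta-like protein without the usual receptor-binding domain, was not called in either line (0.07 and 0.09), except in JJN3 with quantile normalisation (0.16).

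Of 5 genes that add sugars to the receptors, 4 rose and 1 fell in INA6, and 3 rose and 1 fell in JJN3, where 24.7% and 25.5% of all genes were called higher. The fall in each line was RFNG, a Fringe enzyme that changes which ligands a receptor answers to, at −0.36 in INA6 (adjusted p = 0.000215) and −0.58 in JJN3 (adjusted p = 1.04e-10). MFNG, another Fringe, rose by 0.25 in JJN3 (adjusted p = 1.69e-05). POFUT1, which adds the fucose that Fringe enzymes extend, rose by 0.17 in INA6 (adjusted p = 0.00476) and by 0.16 in JJN3 (adjusted p = 0.0014), calls lost with quantile normalisation (0.10 and 0.09) and in INA6 also without non-targeting replicate 1 (0.12). MFNG rose by 0.14 in INA6 (adjusted p = 0.0199), but not without knockdown replicate 2 (0.12) or 3 (0.10) or non-targeting replicate 1 (0.14) or 3 (0.12), and quantile normalisation brought it to 0.05. The other rises, named after their values were seen, were of EOGT, which adds N-acetylglucosamine, and POGLUT1, which adds glucose. EOGT rose by 0.22 in INA6 (adjusted p = 0.00539) and was at −0.0069 in JJN3. POGLUT1 rose by 0.29 in JJN3 (adjusted p = 4.48e-05), and its rise by 0.15 in INA6 (adjusted p = 0.0475) was lost without knockdown replicate 1 (0.14) or 3 (0.11) or non-targeting replicate 1 (0.17) or 2 (0.10).

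Of the 9 cleavage genes, 4 rose and 0 fell in JJN3, while 0 rose and 1 fell in INA6. The shares called, 44.4% in JJN3 and 11.1% in INA6, were below the 51.0% and 48.6% of all genes, so nothing is read from these counts. ADAM10, the protease of the first ligand-induced cut, rose by 0.21 in JJN3 (adjusted p = 9.23e-05) and was at 0.0035 in INA6. FURIN, which cuts the receptor on its way to the surface, rose by 0.20 in JJN3 (adjusted p = 0.000574) and was at −0.08 in INA6, where quantile normalisation gave a call at −0.14. APH1B, a gamma-secretase subunit, fell by 0.37 in INA6 (adjusted p = 4.41e-05) and was at −0.07 in JJN3 (called at −0.11 without non-targeting replicate 2), while the related APH1A was at 0.10 and −0.06, not called in either line. Both APH1A values were called under an alternative, in INA6 at 0.13 with median centring and at 0.11 without knockdown replicate 1, and in JJN3 at −0.17 with quantile normalisation. Of the ligases that ubiquitinate ligands, MIB1 fell in INA6 by 0.29 (adjusted p = 0.000143) and was at −0.09 in JJN3, called there at −0.12 without knockdown replicate 1 and at −0.20 with quantile normalisation. MIB2 rose in JJN3 by 0.18 (adjusted p = 0.00339) and NEURL1 by 0.32 (adjusted p = 0.000145). The INA6 calls of MIB2 (−0.16, lower) and NEURL4 (0.15, higher) did not hold. MIB2 was lost without knockdown replicate 1 (−0.10) or 2 (−0.17) or non-targeting replicate 2 (−0.14) or 3 (−0.15), and with median centring (−0.12) or quantile normalisation (−0.11). NEURL4 was lost without knockdown replicate 2 (0.13) or 3 (0.09) or any of non-targeting replicates 1 (0.16), 2 (0.15) and 3 (0.15).

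Of 10 genes of receptor trafficking and turnover tested in each line, 6 fell and 3 rose in INA6, and 5 fell and 1 rose in JJN3, where 24.0% and 25.5% of all genes were called lower. Some of the falls were fragile, among them those of NUMBL, FBXW7 and ITCH, named after their values were seen. In INA6, 6, 5 and 4 of 12 alternatives ended their calls, and in JJN3 6 of 12 ended that of FBXW7. DTX3, of the Deltex family that ubiquitinates Notch or its partners, fell by 0.19 in INA6 (adjusted p = 0.00686, lost at −0.15 without knockdown replicate 2) and by 0.45 in JJN3 (adjusted p = 8.4e-08). NEDD4, a ubiquitin ligase, fell by 0.38 in JJN3 (adjusted p = 2.53e-06) and was below the minimum in INA6. DTX3L, a relative of DTX3 that works with PARP9 in DNA damage and interferon responses, rose by 0.32 in INA6 (adjusted p = 2.54e-05) and fell by 0.37 in JJN3 (adjusted p = 9.34e-07). DTX4 rose in INA6 by 0.37 (adjusted p = 5.19e-05) and was at 0.0086 in JJN3.

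Of the nuclear activators, 5 were tested in INA6, of which 3 rose and 0 fell. In JJN3 7 were tested, of which 3 rose and 1 fell, beside 24.7% and 25.5% of all genes called higher in INA6 and JJN3. The fall was of MAML2, named after its values were seen, at −0.16 (adjusted p = 0.00763). MAML2 was below the minimum in INA6. The acetyltransferase coactivators EP300 and CREBBP rose in both lines. EP300 rose by 0.31 in INA6 (adjusted p = 6.69e-06) and by 0.27 in JJN3 (adjusted p = 2.65e-06), and CREBBP by 0.21 (adjusted p = 0.000423) and 0.25 (adjusted p = 5.94e-05). RBPJ, named after its values were seen because it is the pathway's DNA-binding protein, was at −0.07 in INA6 (adjusted p = 0.212) and −0.09 in JJN3 (adjusted p = 0.0813), and was called lower with quantile normalisation (−0.12 and −0.16) and, in JJN3, without knockdown replicate 1 (−0.13). Of 14 corepressor genes listed, 12 were tested in each line and 2 were below the minimum. Of the 12, 7 rose and 2 fell in INA6, and 6 rose and 3 fell in JJN3. Of all genes, 24.7% were called higher and 24.0% lower in INA6, and 25.5% in each direction in JJN3. SPEN, which binds RBPJ, rose by 0.21 (adjusted p = 0.000799) and 0.27 (adjusted p = 1.16e-06). TLE3, a Groucho-type corepressor that HES proteins recruit, rose by 0.23 in INA6 (adjusted p = 0.00029) and by 0.39 in JJN3 (adjusted p = 1.01e-08). TLE1 rose by 0.38 in INA6 (adjusted p = 1.57e-05) and by 0.21 in JJN3 (adjusted p = 0.000717), where quantile normalisation ended the call at 0.12.

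Of the HES relatives and other targets, 6 of 8 fell and 1 rose in INA6, and 1 of 7 fell and 5 rose in JJN3, beside 24.0% and 25.5% of all genes called lower. BHLHE40, a circadian and stress-responsive repressor, had 10.27, 10.10 and 10.19 in INA6 knockdown libraries, against 11.22, 11.20 and 11.19, a difference of −1.02 (SE 0.0472, adjusted p = 5.51e-13). In JJN3 it had 13.17, 13.18 and 13.20, against 13.19, 12.96 and 12.69. These values overlapped, and the rise of 0.24 (adjusted p = 0.00264) was lost without non-targeting replicate 3 (0.11) and with quantile normalisation (0.15). Its relative BHLHE41 fell by 0.45 in INA6 (adjusted p = 3.7e-07) and rose by 0.26 in JJN3 (adjusted p = 5.96e-05). CDKN1A, the p21 gene, fell by 0.25 in INA6 (adjusted p = 0.000656) and rose by 0.31 in JJN3 (adjusted p = 3.94e-06).

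Among the HEY genes, which are direct Notch targets in many tissues, HEY1, named after its values were seen, fell in both lines. It had 4.40, 4.35 and 4.43 in INA6 knockdown libraries, against 4.57, 4.68 and 4.53, a difference of −0.20 (adjusted p = 0.00436). In JJN3 HEY1 had 10.57, 10.47 and 10.37, against 10.67, 10.76 and 10.65, a difference of −0.23 (adjusted p = 0.000172). The groups of HEY1 did not overlap in either line. HEY2 fell in INA6 by 0.44 (adjusted p = 1.06e-06) and was below the minimum in JJN3, and HEYL fell in INA6 by 0.33 (adjusted p = 0.000206) and was at −0.03 in JJN3. NRARP, a feedback inhibitor of Notch that is itself a target, rose in JJN3 by 0.30 (adjusted p = 1.47e-05) and was at 0.03 in INA6. So in JJN3, beside the higher DLL4, NRARP rose and HEY1 fell. The relatives HES2, HES3 and HES5 were below the minimum in both lines, HES5 being listed at 0 in all libraries.

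Over these other pathway genes the change differed between the lines for 21 of the 52 tested in both, 14 with the higher difference in JJN3 and 7 with the higher difference in INA6, while 30.0% of all 11137 genes tested in both lines differed. BHLHE40 differed most, by 1.26 (adjusted p = 1.51e-18), followed by BHLHE41 at 0.71 (adjusted p = 1.05e-11), DTX3L at −0.69 (adjusted p = 7.74e-11) and CDKN1A at 0.57 (adjusted p = 2e-08), all as JJN3 minus INA6.

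**Figure D3:**
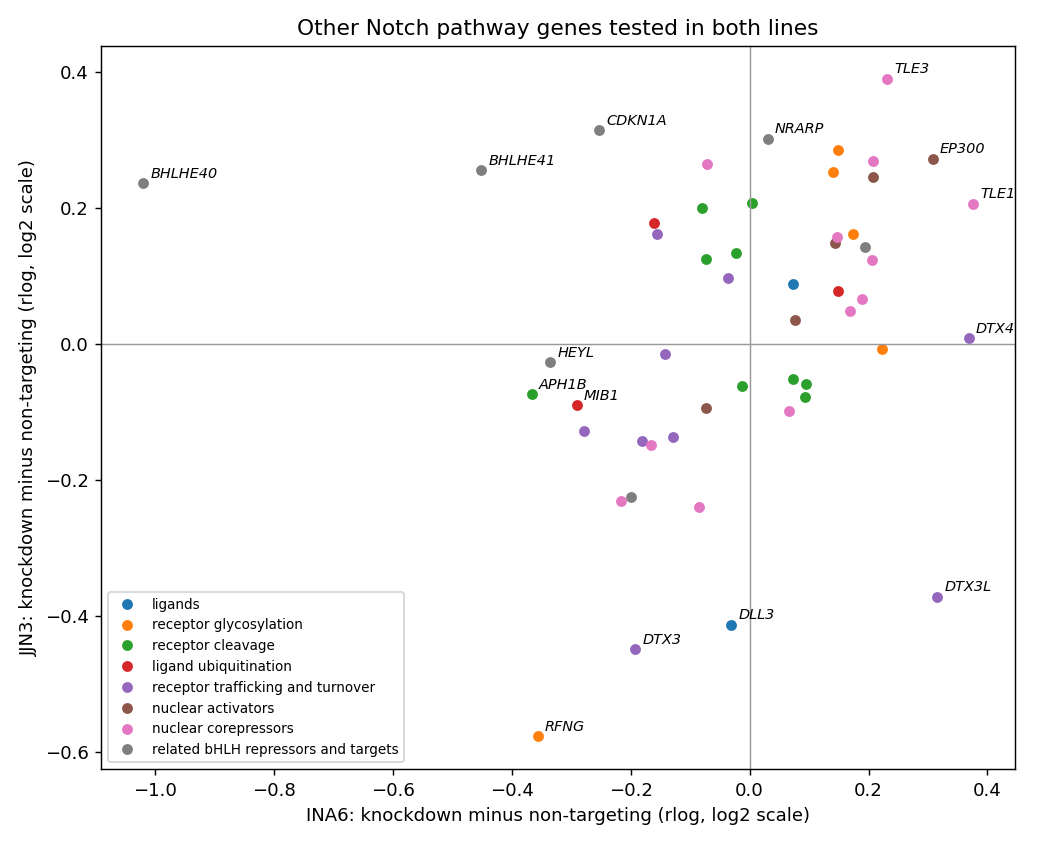
Differences (knockdown minus non-targeting, rlog, log2 scale) of the 52 other Notch pathway genes tested in both lines, INA6 across and JJN3 up, coloured by role. BHLHE40 lies farthest left at −1.02 in INA6 and RFNG lowest at −0.58 in JJN3, while EP300, TLE1 and TLE3 lie above 0 in both.

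The nearest protein-coding gene on each side of each of the 10 genes was looked up in the RefSeq annotation, 20 neighbours in all. In INA6, 12 were tested, of which 6 rose and 3 fell, and in JJN3 13 were tested, of which 4 rose and 4 fell, beside the 48.6% and 51.0% of all genes called in either direction. CHAC1, a glutathione-degrading enzyme gene whose mouse protein blocks Notch1 maturation, starts 14398 bases beyond DLL4 and rose in both lines. It had 9.67, 9.64 and 9.62 in INA6 knockdown libraries, against 9.29, 9.41 and 9.20, a difference of 0.34 (SE 0.0539, adjusted p = 2.28e-05). In JJN3 it had 7.78, 7.75 and 7.80, against 7.27, 7.27 and 7.30, a difference of 0.50 (SE 0.0537, adjusted p = 7.77e-09). CHAC1 thus rose in INA6, where the DLL4 groups overlapped, as well as in JJN3. VPS18, the vesicle-tethering gene on the other side of DLL4, was at 0.09 in JJN3 (adjusted p = 0.115), where without knockdown replicate 1 it was called at 0.16 and with median centring at 0.12. It was called in INA6 at 0.13 (adjusted p = 0.0462), but not without knockdown replicate 2 (0.10) or 3 (0.12) or non-targeting replicate 1 (0.12), 2 (0.11) or 3 (0.14), nor with quantile normalisation (0.12).

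Both neighbours of JAG1 went the other way from JAG1. SLX4IP, 9654 bases away and named for binding the nuclease scaffold SLX4, fell by 0.22 in INA6 (adjusted p = 0.00691) and by 0.37 in JJN3 (adjusted p = 2.49e-06). BTBD3, 1216818 bases away, fell by 0.31 in JJN3 (adjusted p = 1.51e-05). In INA6 BTBD3 was called at −0.18 (adjusted p = 0.0243), but not without knockdown replicate 3 (−0.13) or non-targeting replicate 2 (−0.14) or 3 (−0.17), nor with median centring (−0.14) or quantile normalisation (−0.15). The neighbours of JAG2 were GPR132, a G protein-coupled receptor gene not called in either line (−0.03 and 0.02), and NUDT14, an enzyme of nucleotide sugars. NUDT14 was at −0.05 in JJN3 and was called in INA6 at 0.15 (adjusted p = 0.044), but not without knockdown replicate 2 (0.12) or 3 (0.12) or non-targeting replicate 1 (0.16), 2 (0.14) or 3 (0.14).

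SEC16A, a gene of endoplasmic reticulum exit sites 9693 bases from NOTCH1, rose in both lines, by 0.16 in INA6 (adjusted p = 0.00674) and by 0.28 in JJN3 (adjusted p = 6.63e-07). The INA6 call was lost without non-targeting replicate 1 (0.11) and with quantile normalisation (0.08). EGFL7, on the other side of NOTCH1, was at −0.12 in JJN3 (adjusted p = 0.0881), called without knockdown replicate 3 (−0.18) or non-targeting replicate 2 (−0.16), and was below the minimum in INA6. SEC22B, a vesicle fusion gene beside NOTCH2, was at −0.01 in JJN3 and was called lower in INA6 at −0.14 (adjusted p = 0.046), but not without knockdown replicate 2 (−0.11) or 3 (−0.12) or non-targeting replicate 2 (−0.15) or 3 (−0.11), nor with median centring (−0.11).

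ISG15, an interferon-induced ubiquitin-like gene 13400 bases from HES4, fell in JJN3 by 0.44 (adjusted p = 2.17e-07), with 7.58, 7.64 and 7.76 in knockdown libraries, against 8.10, 8.18 and 8.02. HES4 in the same libraries overlapped between groups. In INA6 ISG15 was at −0.11 (adjusted p = 0.148). Both neighbours of HES6 rose with it. PER2, a circadian repressor gene 4006 bases away, rose by 0.25 in INA6 (adjusted p = 0.00088) and by 0.19 in JJN3 (adjusted p = 0.00656), the JJN3 call being lost without non-targeting replicate 1 (0.13). ILKAP, a phosphatase gene 34572 bases away, rose by 0.25 in INA6 (adjusted p = 0.00237) and by 0.15 in JJN3 (adjusted p = 0.0171), where it was lost without knockdown replicate 3 (0.12) or non-targeting replicate 3 (0.13). PER1, a circadian repressor gene 13838 bases from HES7, fell in JJN3 by 0.20 (adjusted p = 0.00298) and was at −0.03 in INA6 (adjusted p = 0.754). The remaining neighbours were ALOXE3 and PERM1, below the minimum in both lines, ERMARD, ADAM30 and CPN2, at 0 in all libraries, and 2 uncharacterised loci not used here. Whether neighbours share a cause with the genes they flank was not tested.

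**Figure D4:**
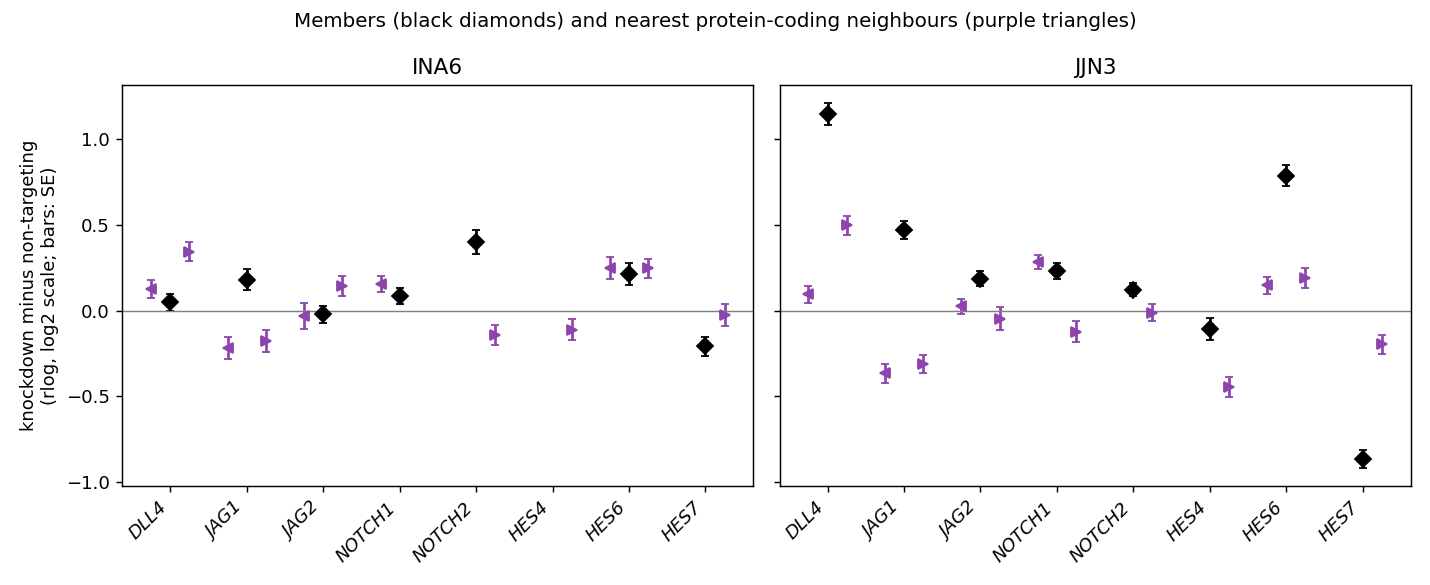
Differences (knockdown minus non-targeting, rlog, log2 scale, bars for SE, 3 libraries per group) of 8 Notch genes (black diamonds) and of their tested neighbours at lower (left) and higher (right) coordinates (purple triangles), in INA6 and JJN3. CHAC1 right of DLL4 lies at 0.34 and 0.50, and SLX4IP and BTBD3 on either side of JAG1 lie below 0.

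Markers of other cell types were followed because such cells can carry Notch ligands. Of 10 endothelial markers, PECAM1 alone reached the minimum for testing in INA6, where it rose by 1.22 (adjusted p = 1.66e-12). The summed level of the list, as log2 of the summed unlogged values, was 8.50 to 8.67 in INA6 knockdown libraries, against 7.38 to 7.43 in non-targeting libraries. PECAM1 made up most of this sum, at 8.53, 8.63 and 8.45 with the knockdown, against 7.34, 7.28 and 7.33, so the sum is no separate result. CDH5, TEK, VWF and EMCN, which define endothelium, were listed at 0 there. In JJN3, the line in which DLL4 was higher, ESAM was the 1 marker tested (0.03), the list summed to 5.21 to 5.26, against 5.13 to 5.26, and CDH5, TEK, ERG and EMCN were listed at 0. Since EIF4A1 is also at 0, nothing is read from these zeros. The part of such cells in the DLL4 difference was not tested. The stromal sum was 2.76 to 2.82 in JJN3 knockdown libraries, against 2.77 to 2.82, and 3.05 to 3.06 in INA6, against 3.06 to 3.08. B cell markers did not move as a block in JJN3: MS4A1 rose by 0.64, CIITA rose by 0.61 and CD79B fell by 0.60, and the list summed to 11.67 to 11.79, against 11.20 to 11.32. CIITA made up most of that sum, at 11.51, 11.65 and 11.60 in knockdown libraries, against 11.04, 10.99 and 10.90. Plasma cell markers fell more often than they rose in INA6 (2 up, 7 down of 10, sum 16.45 to 16.62 against 16.95 to 16.97) and rose more often in JJN3 (6 up, 1 down, sum 16.80 to 16.85 against 16.64 to 16.68). JCHAIN weighed most in the INA6 sum, at 15.01, 14.72 and 14.74 with the knockdown, against 15.75, 15.71 and 15.70. Beside all these marker calls, 48.6% of all genes tested were called in INA6 and 51.0% in JJN3. T and NK cell markers had 0 calls in INA6 and 2 falls in JJN3, with 2 of 6 tested in each, and myeloid markers had 0 calls in either.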

How the data were processed

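The 12 RNA libraries were grouped by their titles. The authors used Bowtie2, Trim Galore, DESeq2 and HTSeq with build hg38, per the submitters' processing notes. Versions, settings and strand handling are not given in the sources used, so overlapping and near-identical genes are uncertain. Messenger RNA was selected with poly-T beads, per the labels' protocols. For each line the authors deposited rlog values, on a log2 scale, in 1 table. Depth per library is unknown, so no counting interval is given. Genes with a mean of at least 3 were fitted within each table with limma 3.58.1 in R 4.3.3 (lmFit, eBayes with a mean-variance trend), two-sided, with Benjamini-Hochberg adjustment over 12511 genes in INA6 and 12282 in JJN3. The difference between lines was divided by the root of the summed squared standard errors. With 3 libraries against 3, an exact permutation test has a smallest p of 0.1, and none was used. The fit was tested on simulated data.

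The 10 genes, the pathway list and the marker lists were chosen with earlier results of these data known. Named besides the 10 were KANSL2, pathway genes called with an absolute difference of at least 0.3 in either line and otherwise up to 2 per role with the smallest p, the nearest protein-coding neighbours, and the 3 nearest patterns to DLL4, HES6 and HES7. The values of 1 pathway gene are not reported here. Of the symbols, 27661 matched the RefSeq tables. Promoters are RefSeq's, GRCh38.p14. Alternatives were quantile normalisation, median centring, a replicate block, other minimum means, no trend, and leaving out each library.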

Additional observations from a re-analysis of the deposited data

Results flagged for a closer look

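Each gene here changed differently with the knockdown in the 2 lines by the test of the difference itself (JJN3 minus INA6, n = 3 per group, Benjamini-Hochberg over 11137 genes), and 30.0% of all those genes did so. BHLHE40 (1.26), BHLHE41 (0.71), CDKN1A (0.57), MIB2 (0.34), HEYL (0.31), APH1B (0.29), FURIN (0.28), NRARP (0.27), ADAM10 (0.20), MIB1 (0.20) and TLE3 (0.16) had the higher difference in JJN3. DTX3L (−0.69), DLL3 (−0.38), DTX4 (−0.36), DTX3 (−0.26), RFNG (−0.22) and APH1A (−0.15) had the higher difference in INA6. The adjusted p of these 17 ran from 1.51e-18 for BHLHE40 to 0.0488 for TLE3. Because KANSL2 was lowered to 43.1% in JJN3 and to 76.4% in INA6, line and depth of knockdown cannot be told apart. Rlog values also understate changes of genes with few reads, and some of these genes had low values in a line. Mean values were 3.07 for DLL3 and 4.65 for NRARP in INA6, and 3.62 for APH1B, 4.06 for DTX4 and 4.36 for HEYL in JJN3. The part of this in their differences between lines was not tested.

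Among the genes just listed, DTX3L, MIB2, BHLHE40, BHLHE41 and CDKN1A were called in opposite directions in the 2 lines. MIB2 was at 0.18 in JJN3 and −0.16 in INA6, and BHLHE40 at 0.24 and −1.02, the fragile calls among these being MIB2 in INA6 and BHLHE40 in JJN3. RFNG was called lower in both, at −0.58 in JJN3 and −0.36 in INA6, and the test of its difference was lost without INA6 knockdown replicate 3 (−0.17), INA6 non-targeting replicate 2 (−0.22) or 3 (−0.15), JJN3 knockdown replicate 1 (−0.21) or 2 (−0.22), or JJN3 non-targeting replicate 2 (−0.18). MIB1 was lost with quantile normalisation (0.14) and without INA6 knockdown replicate 2 (0.16) or 3 (0.17) or the third non-targeting replicate of INA6 (0.19) or JJN3 (0.18). NRARP was lost with quantile normalisation (0.18). APH1A was lost without any single library (−0.15 to −0.14) except INA6 knockdown replicate 1, INA6 non-targeting replicate 2, JJN3 knockdown replicate 3 and JJN3 non-targeting replicate 2. TLE3 was lost with median centring (0.15) and without any single library (0.12 to 0.17) except INA6 knockdown replicate 3, INA6 non-targeting replicate 1 and JJN3 knockdown replicate 1. Among the pathway genes EOGT, NUMBL and TLE4, which were named after their values were seen, the differences were −0.23, 0.32 and 0.34, the first lost without INA6 knockdown replicate 2 (−0.22), INA6 non-targeting replicate 1 (−0.21) or 2 (−0.19) or JJN3 non-targeting replicate 1 (−0.18). NUMBL too was called in opposite directions, lower in INA6 at −0.16 and higher in JJN3 at 0.16. Of 12 alternatives, 6 ended its INA6 call and 3 its JJN3 call.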

How the results depend on the processing

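Over the named and listed genes, 2784 alternative values were computed, and 0 of them reversed a called direction. Of these, 2562 kept their side of the threshold or moved by less than the replicate spread, 171 lost a call, 47 gained one and 4 moved further. The 10 Notch genes were sorted only by the size of the move. The 171 and 47 therefore leave out the calls lost by JAG1, HES6, JAG2 and NOTCH2 and those gained by NOTCH1 and HES4, given with each gene above. Of the 10 Notch genes, 3 were called higher in INA6, and 1 to 4 when each library was left out, the 1 being without non-targeting replicate 3. The 1 called lower in INA6, HES7, became 0 with a minimum mean of 5, which removes it. In JJN3 the 1 called lower became 1 to 2 when each library was left out, HES4 joining HES7 without knockdown replicate 3. Of the neighbours in INA6, 6 rose, with 3 to 6 when each library was left out, and 3 fell, with 1 to 3 when each was left out and 1 with median centring.

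The replicate numbers did not pair the samples: deviations of same-numbered libraries correlated at −0.18, −0.07 and −0.30 in INA6 and at 0.0045, −0.01 and 0.0019 in JJN3. With the replicate block, 2811 genes rose and 2815 fell in INA6, and 3113 and 3092 in JJN3, while of the 10 Notch genes 3 were called higher and 1 lower in INA6, and 6 and 1 in JJN3. The number of pathway genes that differed between lines was 18 with the block, against 21, RFNG, APH1A and TLE3 being among those lost. The block also ended the INA6 calls of MIB2, NEURL4, POGLUT1, VPS18, NUDT14 and SEC22B and added a call of MIB1 in JJN3 (−0.09). Depth is unknown, and rlog values understate changes of genes with few reads, such as DLL4 and JAG2 in INA6.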
